A study of Mus musculus with 6 samples.

Results

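Caspases are proteases that take a dying cell apart, and a second group of genes encodes the proteins that hold them back. The 8 genes described here are 3 caspases (Casp6, Casp8 and Casp9), 4 members of the inhibitor of apoptosis family (Birc2, Birc3, Birc5 and Xiap) and Cflar, the caspase-8-like inhibitor c-FLIP. They form a family picked by gene name, with earlier results of these data known, and were matched by symbol among the 26128 genes listed, of which 14671 had enough counts to be tested. All 8 were among those tested.

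The RNA came from double negative T (DNT) cells, which carry CD3 but neither CD4, CD8 nor the NK cell marker NK1.1. They had been converted in culture from CD4+CD25- cells of adult wild type C57BL/6 mice and sorted. The labels give spleen as the tissue, and the methods of the study add lymph nodes, mature dendritic cells of DBA/2 mice as partners in the culture, and IL-2. Both groups were then held for 48 h with anti-CD3/CD28 beads, which engage the T cell receptor and CD28, so the control cells were activated too. The control group (3 libraries) received no IL-33 and the other group (3 libraries) received IL-33 at 50 ng/ml. IL-33 is an alarmin of the IL-1 family that signals through its receptor ST2 to NF-κB, and the comparison asks which transcripts differ when it is added. No source used here gives the exact ages of the mice or says whether replicates were separate mice or cultures, so p-values measure the spread between these libraries, which may be technical.

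In the extrinsic pathway, a death receptor gathers FADD and caspase-8, and c-FLIP competes with caspase-8 at that platform. In the intrinsic pathway, cytochrome c released from mitochondria joins APAF1 to activate caspase-9. Both routes converge on effector caspases, of which caspase-6 is one. XIAP binds and blocks caspases directly, and the mitochondrial proteins Smac/DIABLO and HTRA2 relieve that block. cIAP1 (Birc2) and cIAP2 (Birc3) act mainly as ubiquitin ligases at TNF receptors and, together with TRAF2 and TRAF3, keep the kinase NIK (Map3k14) low. Survivin (Birc5) is best known as a subunit of the chromosomal passenger complex, which guides chromosomes through mitosis, and is most abundant in dividing cells.

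The libraries held 20256342 to 22336050 counts. Levels of single genes are CPM, counts relative to the library total and scaled by TMM, and values after ± are the SD over n = 3 libraries. Sums over lists of marker genes are CPM without the TMM scaling. The TMM factors were 1.004 to 1.008 in control and 0.993 to 0.996 with IL-33. T cell genes were present throughout: the 10 T cell identity genes summed to 3862 to 3999 CPM in the control libraries and 3875 to 4022 CPM with IL-33, 1 of them higher and 1 lower by the test used below. Of the molecules removed by the sort, Cd4 RNA was low but above the floor of 3 counts, with 16 to 22 counts per control library and 5 to 11 with IL-33 (0.934 ± 0.183 and 0.373 ± 0.143 CPM, log2 fold change -1.31, adjusted p = 0.023). Cd8a RNA was at 545 ± 13.6 and 400 ± 9.15 CPM, so this transcript was abundant in cells sorted as lacking CD8. Cd8b1, the gene of the other CD8 chain, rose from 9.68 ± 1.65 to 16.3 ± 2.07 CPM (log2 fold change 0.75, adjusted p = 6.2e-08). The 4 genes of that sort list, of which 1 was higher and 3 were lower, summed to 577 to 610 CPM in control and 432 to 449.5 CPM with IL-33, nearly all of it Cd8a. Klrb1c, which encodes NK1.1, was at 33.5 ± 2.57 and 25.6 ± 1.15 CPM. Of 5 NK cell markers, 3 were tested, 0 were higher and 2 lower, with sums of 16342 to 16864 and 15829.9 to 15899.6 CPM that were nearly all Gzma, while Ncr1 had 0 to 5 counts. Dendritic and myeloid markers summed to 129.7 to 133 and 108 to 118 CPM (7 of 13 tested, 3 higher, 2 lower), B cell markers to 15.4 to 16.7 and 16.2 to 21.4 CPM (3 of 5 tested, 0 called), and mast cell and basophil markers to 39.3 to 42.6 and 27.9 to 33.0 CPM (4 of 7 tested, 0 higher, 2 lower). In the dendritic and myeloid list, Itgax fell from 54.6 ± 2.07 to 26.0 ± 1.59 CPM (log2 fold change -1.07, adjusted p = 4.3e-28). Batf3 rose from 1.51 ± 0.740 to 3.68 ± 0.946 CPM (log2 fold change 1.28, adjusted p = 4.0e-05). Cd68 (29.4 and 33.6 CPM) and H2-Ab1 (24.8 and 30.3 CPM) were also higher, and Cd74 (5.66 and 3.78 CPM) was lower. Lyz2, a macrophage gene of the same list, had 0 to 8 counts per library. The part of such cells in the results below was not tested. In bulk RNA, fewer cells of a type and less RNA per cell cannot be told apart.

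Of the 8 genes, Birc5 fell most with IL-33 and Birc2 rose most, and no change reached 1.5-fold. Casp6 and Birc3 also fell and Cflar rose, by smaller amounts. Casp8 and Xiap had overlapping groups, and Casp9 did not pass the test. With edgeR (quasi-likelihood), p-values adjusted by Benjamini-Hochberg across the 14671 genes and a threshold of 0.05, 2 of the 8 were higher and 3 lower, beside 13.6% of all genes tested that were higher and 13.9% that were lower. The 5 changes ran from 6.17% to 28.0% in size. The number past both thresholds of the study, which add a fold change of 1.5, was 0, beside 2.47% of all genes higher and 2.39% lower, and it was also 0 by DESeq2 and limma-voom. At an unadjusted p under 0.05 edgeR gave 6 genes without the fold threshold and 0 with it. The share of all genes at that unadjusted threshold was not computed, and it cannot be below the adjusted shares given above. The CPM of the groups did not overlap for 6 of the 8 genes, 3 higher and 3 lower, beside 19.4% of all genes higher and 19.5% lower. These shares were not matched for level, and the mean CPM of the 8 genes was above that of 57.3% (Casp9) to 95.6% (Cflar) of all genes tested. The median log2 fold change was 0.016 over the 8 genes and -6.3e-04 over all genes tested.

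**Figure D1:**
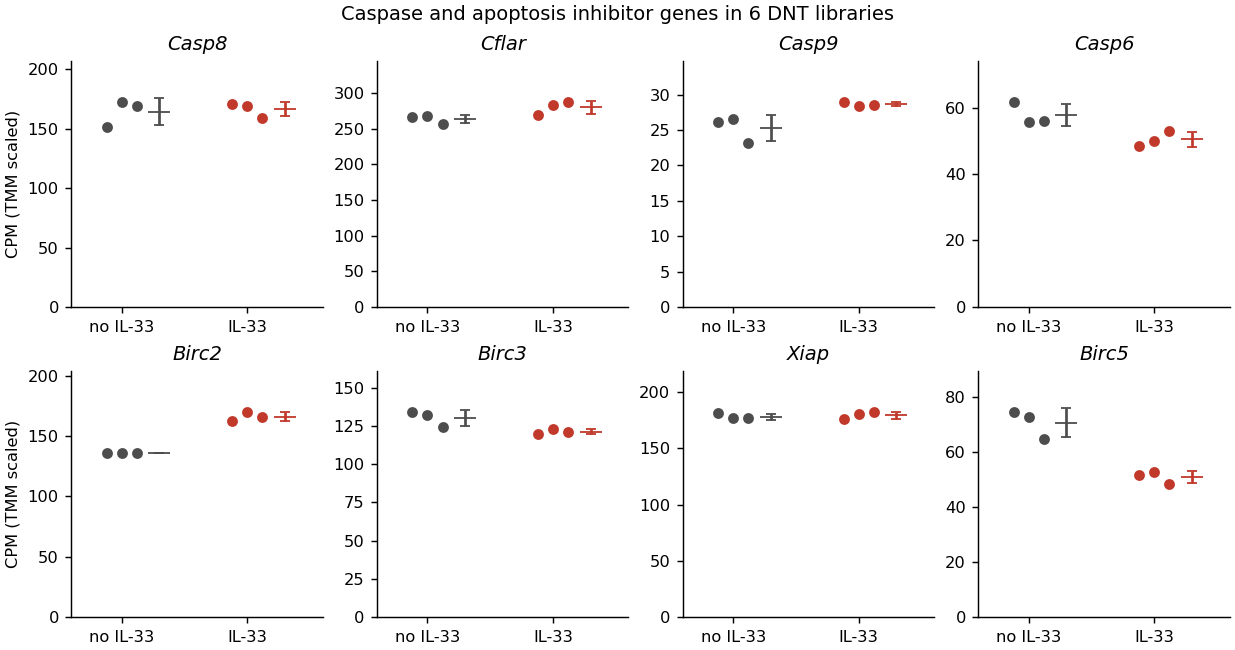
CPM (TMM scaled, linear axes from 0) of the 8 genes in each library, grey for control and red for IL-33, with the mean and SD (n = 3) beside the points. The groups are apart for Birc5, Birc2, Casp6, Birc3, Cflar and Casp9 and overlap for Casp8 and Xiap.

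Transcript levels can be compared between genes only per length, here as CPM per kilobase of the union of each gene's exons in GENCODE M21. On that scale Casp8 was highest in control cells, at 56.8 ± 3.89 CPM per kilobase, and Casp9 lowest, at 4.87 ± 0.363. Between them came Birc2 (29.7 ± 0.0562), Birc3 (26.0 ± 0.995), Cflar (20.8 ± 0.464), Birc5 (20.8 ± 1.53), Xiap (18.8 ± 0.282) and Casp6 (10.3 ± 0.611). Neighbours in this order were apart in every library except Cflar and Birc5, and Birc5 and Xiap, whose libraries overlapped. With IL-33 the order was the same but for Birc5, which stood sixth at 15.0 ± 0.644 below Xiap at 19.0 ± 0.339, with no overlap. Dividing by the longest transcript in place of all exons left 4 of the 8 genes in their control place. On that scale Birc5 stood sixth, below Xiap, in both groups, so its change of place was not seen, and Birc3 went from the second place in control to the fourth with IL-33.

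Birc5 lies on chr11:117849251-117855743 (GRCm38, plus strand; ENSMUSG00000017716) and encodes survivin. It was at 74.5, 72.8 and 64.7 CPM in the control libraries and at 51.6, 52.7 and 48.5 CPM with IL-33. Every IL-33 library was thus below every control library. Its log2 fold change was -0.47 (SE 0.052, adjusted p = 6.1e-13), a fold of 0.720 with a 95% interval of 0.670 to 0.774, and 13.6% of all genes tested had a larger absolute log2 fold change. The call was kept in all 13 alternative fits, with log2 fold changes between -0.53 and -0.43.

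Survivin's partners were lower as well. Of 10 tested genes of the chromosomal passenger complex and related partners, 0 were higher and 8 lower, beside 13.6% and 13.9% of all genes tested. Their median log2 fold change was -0.46, against -6.3e-04 over all genes tested. Aurkb, the kinase of the complex, was at 58.9, 50.5 and 52.6 CPM in control and 35.7, 37.2 and 37.3 CPM with IL-33, a log2 fold change of -0.56 (SE 0.060, adjusted p = 1.6e-13). Incenp, the scaffold, fell from 151 ± 7.53 to 108 ± 3.57 CPM (log2 fold change -0.48, adjusted p = 2.1e-19). Cdca8, which encodes borealin, fell from 59.2 ± 5.75 to 45.0 ± 2.79 CPM (log2 fold change -0.39, adjusted p = 7.7e-08). All 4 subunits of the complex on this list or among the 8 genes were therefore lower in every IL-33 library. Haspin and Bub1, the kinases that mark the centromere for the complex, had log2 fold changes of -0.51 (adjusted p = 4.9e-06) and -0.48 (adjusted p = 1.6e-10), and Sgo2a, a shugoshin that protects centromeric cohesion, one of -0.51 (adjusted p = 0.0014). The smallest of the 8 was that of Xpo1, the nuclear exporter, at -0.19. Ran (-0.07, adjusted p = 0.082) and Usp9x (0.04, adjusted p = 0.41) did not pass.

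Within each library, Birc5 can also be set against Cdca8 without any scaling between libraries. The ratio of their counts per kilobase was 1.77, 1.83 and 1.86 in control and 1.78, 1.66 and 1.72 with IL-33. These groups overlapped (exact permutation test, two-sided, p = 0.2, and 0.333 after adjustment over 5 ratios), and with 3 against 3 libraries the smallest p possible is 0.1.

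Birc2 and Birc3 are neighbours on chromosome 9, both on the minus strand, at chr9:7818227-7837064 (ENSMUSG00000057367) and chr9:7848699-7873186 (ENSMUSG00000032000), with 11635 bp between them. They moved in opposite directions. Birc2 was at 136 CPM in each of the 3 control libraries and at 162, 170 and 165 CPM with IL-33. No library of one group reached the other. The log2 fold change of Birc2 was 0.29 (SE 0.037, adjusted p = 2.4e-10), a fold of 1.22 with a 95% interval of 1.16 to 1.28, and this call was kept in all 13 alternative fits.

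Birc3 was at 134, 132 and 125 CPM in control and 120, 123 and 121 CPM with IL-33, so its groups came close without overlapping. Its log2 fold change was -0.10 (SE 0.039, adjusted p = 0.035), a fold of 0.930 with a 95% interval of 0.882 to 0.982. That call was lost with DESeq2 (adjusted p = 0.077), with upper quartile scaling (0.064), without the filter on low counts (0.062) and when any library but control replicate 3 was left out (up to 0.15 without control replicate 1). The direction was the same in all 13 alternative fits.

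The ratio of Birc3 to Birc2 counts per kilobase was 0.901, 0.890 and 0.837 in control and 0.673, 0.662 and 0.670 with IL-33. This was the one ratio of 5 whose groups did not overlap, with a mean log2 difference of -0.39 and the smallest exact p that the design allows (exact permutation test, two-sided, p = 0.1, and 0.333 after adjustment over 5 ratios). The paralogs share little sequence: of their 50-base windows in GENCODE M21 transcripts, 1.42% of those of Birc2 also occur in Birc3 and 1.28% of those of Birc3 in Birc2. Windows shared with any other gene made up 1.49% for Birc2 and 7.56% for Birc3, the latter mostly with the predicted gene Gm7019.

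**Figure D2:**
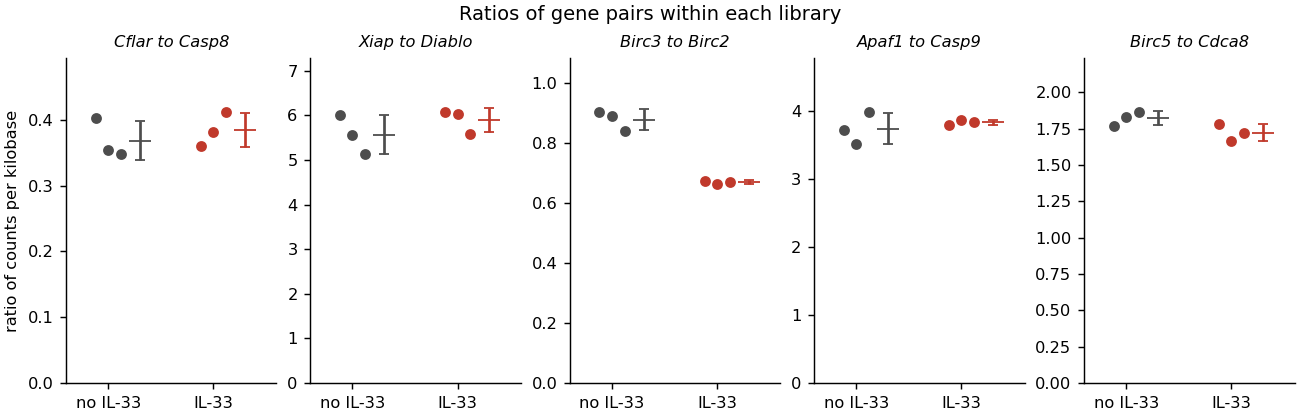
Ratios of counts per kilobase of 5 gene pairs in each library (linear axes from 0; grey, control; red, IL-33), with the mean and SD (n = 3). Birc3 to Birc2 is 0.837 to 0.901 in control and 0.662 to 0.673 with IL-33, and the other ratios overlap between the groups.

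The sequences just upstream of the start sites of Birc2, Birc3 and Birc5 are given because these are the adjacent pair that moved apart and the gene that fell most. They are the 120 bases before a RefSeq start (GRCm38.p6, read 5′ to 3′ on the strand of the gene), and Birc2 has a second start that is not shown. Capitals mark matches on either strand to GGG followed, after any 5 bases, by CC, a loose form of the NF-κB core. The genes, motifs and stretches were chosen after the expression values had been seen.
Birc2, chr9:7837058-7837177, minus strand: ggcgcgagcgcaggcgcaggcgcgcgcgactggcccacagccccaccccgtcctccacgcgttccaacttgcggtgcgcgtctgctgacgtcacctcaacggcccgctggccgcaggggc
Birc3, chr9:7873171-7873290, minus strand: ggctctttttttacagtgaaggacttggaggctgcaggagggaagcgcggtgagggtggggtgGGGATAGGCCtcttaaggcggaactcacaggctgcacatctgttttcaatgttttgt
Birc5, chr11:117849117-117849236, plus strand: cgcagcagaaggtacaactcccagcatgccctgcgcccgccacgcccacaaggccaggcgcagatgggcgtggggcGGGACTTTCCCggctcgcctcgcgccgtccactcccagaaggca

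In Birc5 the capitals cover 2 overlapping matches, 1 on each strand, and the full window of 250 bases before to 50 after the start holds 5 such matches, overlapping ones counted. Birc3 holds 1, and neither Birc2 window holds any. The windows also differ in composition, at 67.0% GC for the Birc2 start shown, 43.0% for Birc3 and 68.7% for Birc5, with a median of 52.7% over all 32851 RefSeq windows. The loose core is common: it was found in 6 of the 11 windows of the 8 genes and in 50.8% of all windows. TTTGAA, the core of the CHR element of cell cycle genes, was found in 2 of 11 against 17.9% of all windows, and CCAAT in 2 of 11 against 37.4%, both on either strand. The Birc5 window holds no TTTGAA and no CCAAT. These are matches of letters, and no binding was measured.

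**Figure D3:**
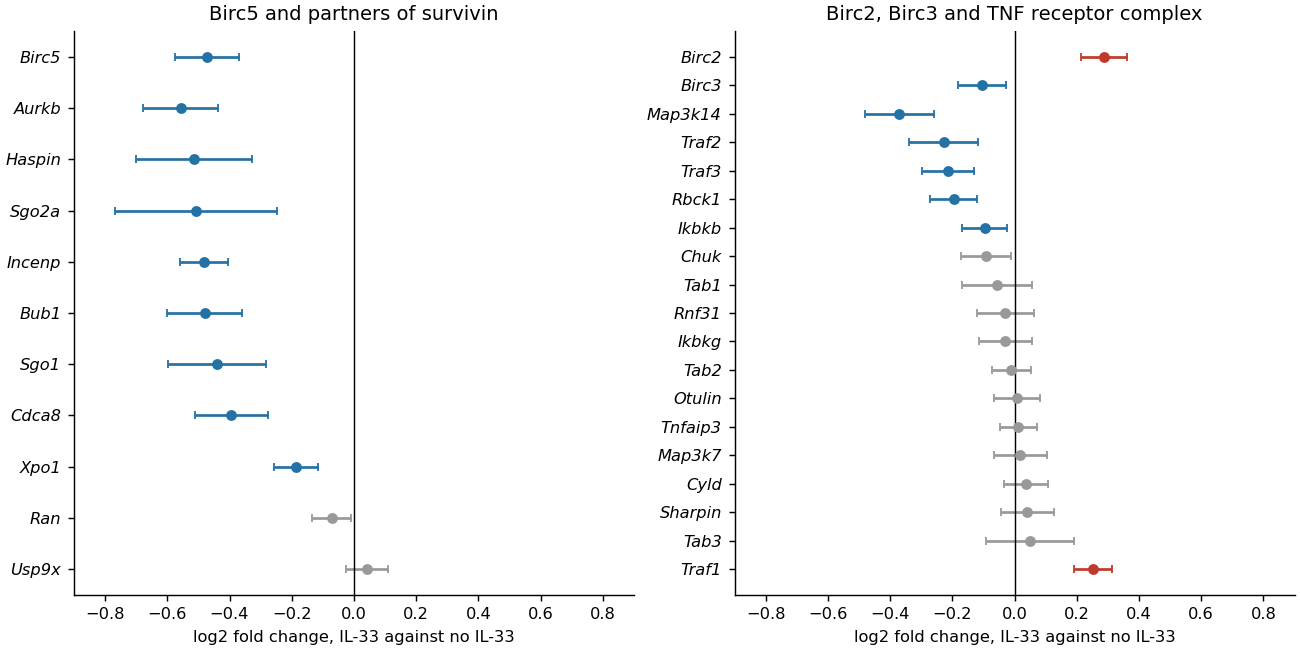
Log2 fold change (IL-33 against control) with its 95% interval from edgeR for Birc5 and the tested partners of survivin (left) and for Birc2, Birc3 and the tested genes of the TNF receptor complex (right); red and blue have an adjusted p under 0.05, higher and lower, and grey do not. On the left 8 of 10 partners are lower, and on the right 1 of 17 is higher and 5 are lower.

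Around cIAP1 and cIAP2, 17 genes of the TNF receptor complex were tested, with a median log2 fold change of -0.03. Of these, 1 was higher and 5 were lower, beside 13.6% of all genes tested that were higher and 13.9% that were lower. Map3k14, the kinase NIK that the cIAPs help to degrade, was at 59.9, 59.5 and 54.8 CPM in control and 44.6, 46.9 and 43.2 CPM with IL-33 (log2 fold change -0.37, SE 0.056, adjusted p = 3.0e-08). Traf2 and Traf3, the adaptors that bring the cIAPs to NIK, fell by 0.23 (adjusted p = 5.9e-04) and 0.21 (adjusted p = 2.3e-05) on the log2 scale. Traf1, an adaptor that pairs with TRAF2, rose from 303 ± 9.97 to 361 ± 10.3 CPM (log2 fold change 0.25, adjusted p = 2.7e-11). Rbck1, a subunit of the linear ubiquitin ligase, had a log2 fold change of -0.20 (adjusted p = 2.4e-05), and its partners Rnf31 (-0.03) and Sharpin (0.04) did not pass. The deubiquitinase gene Tnfaip3 was at 345 ± 3.27 and 348 ± 11.0 CPM (log2 fold change 0.01, adjusted p = 0.81).

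Xiap, on chrX:42059679-42109656 (plus strand; ENSMUSG00000025860), was at 181, 177 and 177 CPM in control and 176, 180 and 182 CPM with IL-33. The groups overlapped, and the log2 fold change was 0.01 (SE 0.035, adjusted p = 0.85). The 95% interval of the fold ran from 0.960 to 1.06. Its mitochondrial antagonists did not pass the test either: Diablo was at 20.9 ± 1.39 and 19.9 ± 1.26 CPM (adjusted p = 0.58), and Htra2 at 13.8 ± 1.06 and 11.4 ± 1.77 CPM (adjusted p = 0.056). The ratio of Xiap to Diablo counts per kilobase was 6.01, 5.55 and 5.13 in control and 6.07, 6.04 and 5.57 with IL-33, with overlap (exact permutation test, two-sided, p = 0.2, and 0.333 after adjustment over 5 ratios).

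The remaining inhibitor genes of the family that are given here and were tested changed by less than 1.5-fold. Birc6, a very large ubiquitin-conjugating member, fell from 444 ± 6.49 to 410 ± 10.5 CPM (log2 fold change -0.12, adjusted p = 6.9e-04). Naip5 (24.3 ± 1.56 to 30.8 ± 2.79 CPM, log2 fold change 0.34, adjusted p = 1.6e-04), Naip6 (11.9 ± 0.675 to 14.6 ± 0.843 CPM, 0.29, adjusted p = 0.032) and Naip2 (40.9 ± 0.818 to 46.4 ± 3.87 CPM, 0.18, adjusted p = 0.017) were higher. These encode sensors of bacterial proteins and are related copies. The sequence they share was not measured, so reads may be split between them and each value is uncertain. Naip1 had 0, 0 and 1 counts in control and 8, 8 and 2 with IL-33 and was not tested.

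**Figure D4:**
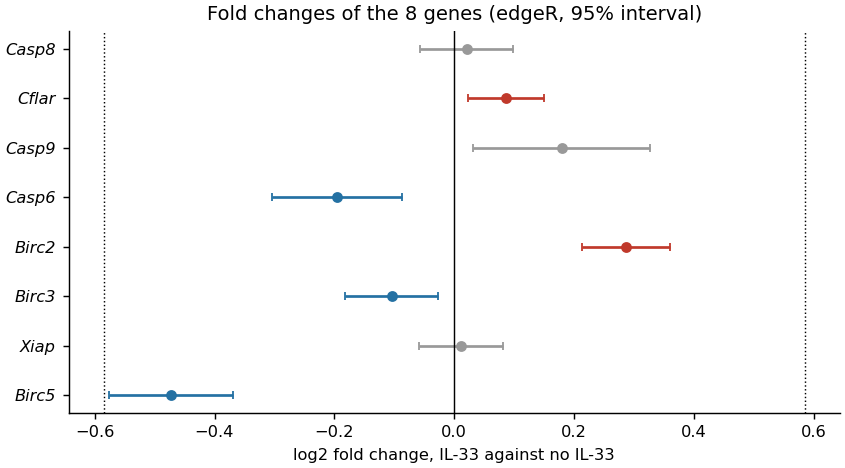
Log2 fold change (IL-33 against control) of the 8 genes with the 95% interval from edgeR; red and blue have an adjusted p under 0.05, higher and lower, grey do not, and dotted lines mark a fold change of 1.5. Birc5 is the lowest at -0.47 and Birc2 the highest at 0.29, and every point lies inside the dotted lines.

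Casp8 and Cflar lie side by side on chromosome 1, both on the plus strand, at chr1:58795374-58847503 (ENSMUSG00000026029) and chr1:58711508-58758884 (ENSMUSG00000026031), 36490 bp apart. Casp8, the initiator of the extrinsic pathway, was at 151, 173 and 169 CPM in control and 171, 169 and 160 CPM with IL-33. The groups overlapped, with a log2 fold change of 0.02 (SE 0.039, adjusted p = 0.75) and a 95% interval of the fold from 0.961 to 1.07. Its sign turned to -0.03 when control replicate 1, the lowest library, was left out. Cflar was at 267, 268 and 257 CPM in control and 269, 283 and 287 CPM with IL-33, and the lowest IL-33 library was just above the highest control library. Its log2 fold change was 0.09 (SE 0.032, adjusted p = 0.033), a fold of 1.06 with a 95% interval of 1.02 to 1.11. This call was lost with DESeq2 (adjusted p = 0.057), without the filter on low counts (0.060), and when control replicate 3 (0.18) or either of IL-33 replicates 2 (0.11) and 3 (0.14) was left out. Of the 50-base windows of Cflar, 7.36% also occur in other genes, the largest number in the predicted gene Gm9845.

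The ratio of Cflar to Casp8 counts per kilobase, which sets inhibitor against initiator, was 0.402, 0.354 and 0.348 in control and 0.360, 0.382 and 0.411 with IL-33. It overlapped between the groups (exact permutation test, two-sided, p = 0.5, and 0.625 after adjustment over 5 ratios).

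Upstream of caspase-8, 13 genes of the death receptor complexes were tested, of which 1 was higher and 2 were lower, near the 13.6% and 13.9% of all genes tested, with a median log2 fold change of -0.02. Tnfrsf10b, the mouse TRAIL receptor, was at 16.9, 14.9 and 16.0 CPM in control and 20.6, 19.6 and 23.0 CPM with IL-33 (log2 fold change 0.40, SE 0.0915, adjusted p = 2.3e-04). Tnfrsf1a, the TNF receptor with a death domain, fell from 36.4 ± 2.39 to 31.9 ± 0.855 CPM (log2 fold change -0.19, adjusted p = 0.024). Pidd1, the scaffold of the complex that activates caspase-2, fell from 32.2 ± 0.887 to 24.8 ± 0.749 CPM (log2 fold change -0.38, adjusted p = 1.1e-05). The adaptor gene Fadd (7.75 ± 0.729 and 8.14 ± 0.602 CPM, adjusted p = 0.75) and the kinase gene Ripk1 (116 ± 6.92 and 116 ± 1.54 CPM, adjusted p = 0.99) did not pass.

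Casp9, on chr4:141793612-141815976 (plus strand; ENSMUSG00000028914), encodes the initiator of the intrinsic pathway. It was at 26.2, 26.6 and 23.1 CPM in control and 29.0, 28.4 and 28.6 CPM with IL-33. Each IL-33 library was above each control library, but the log2 fold change of 0.18 (SE 0.074, adjusted p = 0.061) missed the threshold, which it passed with upper quartile scaling (adjusted p = 0.043). The gene's exons overlap those of Cela2a and Ctrc on the opposite strand over 94 bp. No counts of either gene were found, either because they had none or because they were not listed. The list of the apoptosome and of antagonists of the inhibitors also holds other genes, among them the chaperone gene Hspa4. Of its 10 tested genes, 2 were higher and 1 was lower, beside 13.6% and 13.9% of all genes tested. Their median log2 fold change was -0.08. Apaf1, whose protein assembles the apoptosome around caspase-9, was at 170, 163 and 160 CPM in control and 191 CPM in each library with IL-33 (log2 fold change 0.22, SE 0.035, adjusted p = 3.0e-07). Arl6ip5 also rose (log2 fold change 0.23, adjusted p = 4.7e-09), and Hspa4, a chaperone, fell by 0.11 on the log2 scale (adjusted p = 0.016). Cycs, the gene of cytochrome c, was at 103 ± 4.06 and 97.0 ± 2.37 CPM (adjusted p = 0.14). The ratio of Apaf1 to Casp9 counts per kilobase was 3.73, 3.52 and 3.99 in control and 3.80, 3.87 and 3.84 with IL-33, with overlap (exact permutation test, two-sided, p = 0.7, and 0.7 after adjustment over 5 ratios).

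Casp6, on chr3:129901425-129914103 (plus strand; ENSMUSG00000027997), encodes an effector caspase that cleaves nuclear lamins. It was at 61.7, 55.7 and 56.0 CPM in control and 48.5, 49.9 and 52.9 CPM with IL-33, without overlap. The log2 fold change was -0.20 (SE 0.054, adjusted p = 0.0032), a fold of 0.873 with a 95% interval of 0.810 to 0.941. The call was lost when control replicate 1, the highest library, was left out (adjusted p = 0.061).

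The other caspase genes given here did not pass the test. Casp2, the caspase of the PIDD1 complex, was at 105 ± 1.86 and 101 ± 2.49 CPM (adjusted p = 0.27), and the inflammatory caspase genes Casp1 (19.8 ± 0.263 and 18.5 ± 2.38 CPM, adjusted p = 0.50) and Casp4 (15.1 ± 1.11 and 13.8 ± 1.18 CPM, adjusted p = 0.38) did not pass. Casp12 had 0 to 3 counts per library and was not tested. Over these caspases and the further inhibitor genes Birc6 and Naip described above, 3 of 7 tested genes were higher and 1 lower. The 3 higher were all Naip genes, and the median log2 fold change was -0.06. Among all genes tested 13.6% were higher and 13.9% lower. The values are of RNA, and neither protein nor cleavage of a caspase was measured in these libraries.

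Among 16 tested genes of caspase substrates and effectors of death, 2 were higher and 2 lower, with a median log2 fold change of 0.01. Vim, which encodes the cytoskeletal protein vimentin, was the one gene of the 6 lists past both thresholds, at 334 ± 19.9 CPM in control and 547 ± 11.9 CPM with IL-33 (log2 fold change 0.71, adjusted p = 1.7e-28). Lmnb1, the gene of the lamin B1 of the nuclear envelope, fell from 135 ± 7.35 to 95.6 ± 2.94 CPM (log2 fold change -0.50, adjusted p = 1.6e-19). Casp8ap2 (log2 fold change -0.16, adjusted p = 0.0063) and Dffb, the nuclease that cuts DNA between nucleosomes (0.25, adjusted p = 0.027), changed less. Over the 6 lists together 73 genes were tested, of which 9 were higher and 19 lower, beside 13.6% of all genes tested that were higher and 13.9% that were lower. The 8 lower partners of survivin are among the 19.

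**Figure D5:**
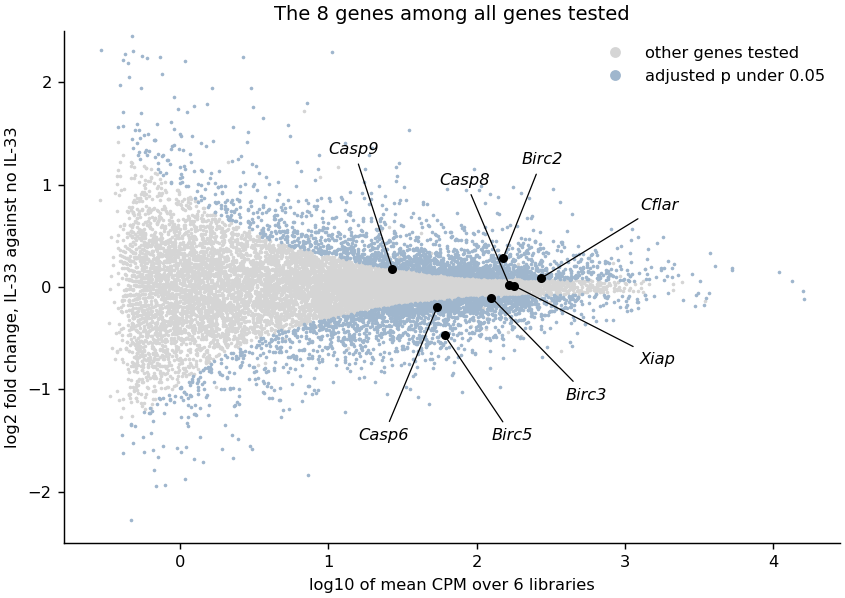
Log2 fold change (IL-33 against control) over log10 of the mean CPM for all 14671 genes tested, with the 8 genes in black, genes with an adjusted p under 0.05 in blue and the rest in grey; 11 genes lie outside the plotted range. Birc5 and Birc2 lie among the called genes of their level, and Casp8 and Xiap lie close to 0.

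Within 50 kb of the 8 genes, 13 other genes were tested, of which 1 was higher, 2 were lower and 10 did not pass, beside 13.6% of all genes tested that were higher and 13.9% that were lower. Tmem123, 23894 bp from Birc2, rose from 522 ± 19.7 to 647 ± 17.2 CPM (log2 fold change 0.31, adjusted p = 2.1e-17). Tk1, the thymidine kinase of dividing cells, lies 23159 bp from Birc5 and fell by 0.40 on the log2 scale (adjusted p = 8.6e-10). Pla2g12a, 5600 bp from Casp6, fell by 0.23 (adjusted p = 0.0059). Those that did not pass were Mcub near Casp6, Gm37760 and Gm28802 near Casp8, Dnajc16 and Efhd2 near Casp9, Syngr2, Afmid and Tha1 near Birc5, Stag2 near Xiap and Als2cr12 near Cflar.

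For each of the 5 genes called, the 2 genes with the most similar levels over the 6 libraries were taken by Pearson's r of log2 CPM among 12960 genes with a mean of at least 1 CPM. With so many genes and 6 libraries in 2 groups, high values of r are common, and they are given as a description. Birc5 was followed most closely by Traf3 (r = 0.997) and by Spag5, a gene of the mitotic spindle (r = 0.997, log2 fold change -0.53). Birc2 was followed by Slc11a2, an iron transporter gene (r = 0.999, log2 fold change 0.59), and Zfp365 (r = 0.999, log2 fold change 1.80). The closest genes were Prpf19 (r = 0.998) and Lmf2 (r = 0.991) for Birc3, N4bp2 (r = 0.998) and Rock2 (r = 0.991) for Cflar, and Pla2g4c (r = 0.994) and 1700037C18Rik (r = 0.992) for Casp6.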

How the data were processed

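Libraries were grouped by their labels (3 control, 3 IL-33). The authors deposited 1 table of unnormalized read counts, with a row for each gene. The submitters' processing notes name Bowtie 0.12.2 and mm8. The counting program, the annotation and the use of strand are not given in the sources consulted, and the labels and the study name different library kits. The authors also deposited a signal column, the mean of normalized counts, which entered no test. Genes were filtered with filterByExpr (minimum count 10, total 15), scaled by TMM and compared with edgeR 4.0.16 (robust glmQLFit and glmQLFTest, two-sided, no covariates), with Benjamini-Hochberg adjustment over 14671 genes; intervals are at 95%. The libraries held 20256342 to 22336050 counts, so a floor of 3 counts was 0.134 to 0.148 CPM. Intervals for replicated values cover the spread between libraries. The common biological coefficient of variation was 0.0468. Ratios were tested by exact permutation. Positions and exon lengths are from GENCODE M21 (GRCm38), in which 26072 of 26128 identifiers matched, and promoters from RefSeq (GRCm38.p6), where all 8 genes matched.

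The members and lists were chosen with earlier results of these data known. Genes named were the 8 members; from each of the 6 lists those past both thresholds and up to 5 others called with a mean of at least 1 CPM; the other caspase and inhibitor genes, except listed genes that are not reported here and enter no count of a list, which were removed after their values had been seen; the 2 genes most alike to each called member; and tested genes within 50 kb. Others were named after their values had been seen. Alternatives were DESeq2 1.42.0, limma-voom (limma 3.58.1), other scalings and filters, a replicate block, a test against the fold threshold and leaving out each library. The scripts were tested on simulated data.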

Additional observations from a re-analysis of the deposited data

How the results depend on the processing

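Birc2 and Birc5 kept their direction and call in all 13 alternative fits, and the number of the 8 genes past both thresholds was 0 in every fit. Over the 8 genes and 13 fits, 87 values kept direction and call, 15 lost the call, 1 (Casp9 with upper quartile scaling, 0.19) gained it and 1 reversed. The count of genes called, 5, was 3 with DESeq2, 3 without the filter on low counts and 3 to 4 when 1 library was left out. Of these, the 2 higher became 1 with DESeq2, 1 without the filter, 1 with the replicate block, 1 to 2 when 1 library was left out, and 3 with upper quartile scaling. The 3 lower became 2 with DESeq2, with upper quartile scaling and without the filter, and 1 to 3 when 1 library was left out, with 1 left without control replicate 1. The log2 fold change of Casp8 ran from -0.035 to 0.057 over the leave-one-out fits, and was -0.035 without control replicate 1. The mean log2 difference of the ratio of Apaf1 to Casp9 ran from -0.0072 to 0.082, and was -0.0072 without control replicate 2. With the longest transcript as length, 4 of 8 genes kept their place in the order of levels. The cause of these changes was not tested. Replicate numbers are shared by the groups, but the deviations of same-numbered libraries were hardly correlated (r = 0.0116, 0.0032 and 0.0107), each highest with its own number; the replicate block gave 4 genes called in place of 5, with Cflar at an adjusted p of 0.054. The 95% intervals of the fold of Casp8 (0.961 to 1.07) and Xiap (0.960 to 1.06) include no change, and changes of a size within them are not excluded.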
